A study of Mus musculus with 41 samples.

Results

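The 39 genes described here encode the machinery that copies DNA, together with cyclin E, E2F1 and the enzymes that supply the building blocks of DNA and repackage it behind the fork. They were named by symbol, and each was read from the probe set that matched this gene alone and had the highest mean over all 41 tumours. Of the 39, 38 had such a probe set among the 18194 genes of the array that did, and 37 passed the filter on low signal, as did 14319 genes in all. Chaf1a had no probe set of its own. Tyms, which encodes thymidylate synthase, did not pass the filter, with group means between 5.06 (day 6) and 5.33 (day 9) in log2 intensity.

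The tumours were melanomas of iBIP mice, described by the labels as BRAF-driven, in which doxycycline was in the drinking water until its withdrawal. The reference was 4 tumours at day 0. Tumours were also taken at day 1 (n = 7), day 2 (n = 5), day 3 (n = 6), day 6 (n = 4) and day 9 (n = 3) after withdrawal, with single tumours at days 16 and 29. A further 10 tumours came from days 63 to 163 and are called late tumours here. The labels list no alleles beyond the strain name, do not say whether late tumours had shrunk or regrown, and do not say that each tumour came from its own mouse, so p values measure the spread between these tumours. Skin was trimmed off and a piece of each tumour was used whole, so fewer dividing cells and less RNA per cell cannot be told apart.

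Before S phase, the origin recognition complex, CDC6 and CDT1 load rings of MCM2 to MCM7 onto origins, a step called licensing, which geminin limits by binding CDT1. CDC45 and the GINS complex then turn these rings into active helicases, polymerases copy the strands on a PCNA clamp, and ribonucleotide reductase and thymidine kinase keep the supply of deoxynucleotides up. In dividing cells cyclin E with CDK2 phosphorylates RB1, which frees E2F factors to transcribe many of these genes at the G1 to S transition, and growth signalling through BRAF and ERK feeds into this step through the D cyclins.

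The arrays differed in ways that touch the results. By the level of bacterial control transcripts added to the samples, they fell into 3 sets. All tumours of days 2, 3 and 6 and 1 tumour of day 1 were in the first set, 6 tumours of day 1 and 8 late tumours in the second, and day 0, days 9, 16 and 29 and 2 late tumours in the third. The log2 difference between the 3′ and 5′ Gapdh probe sets, which widens as RNA or cDNA gets shorter, was above 2 in 8 late tumours and 1 tumour of day 9, and between 0.28 and 0.58 at day 0. Of 8 melanocyte markers, 7 passed the filter, and 4 of these were called higher in late tumours than at day 0 (Mitf, Kit, Mlana and Tyrp1) and none lower, with a median difference of 0.69. Mitf was at 8.95 in late tumours and 7.73 at day 0, and Tyrp1 at 6.43 and 5.42. Sox10, at 10.06 ± 0.44 in late tumours and 10.26 ± 0.34 at day 0 (SD, n = 10 and 4), was the only one of the 7 with a difference below 0, and Tyr, at 4.96 and 5.15, did not pass the filter. Markers of other cells moved as well. All 4 measured Schwann and nerve markers were called higher in late tumours, with list means per tumour of 10.71 to 12.04, against 6.61 to 8.87 at day 0, and 5 of 7 macrophage markers were called higher at each of days 1, 2, 3 and 6. Of 7 T and NK cell markers, 6 were called higher at day 1 and 5 at day 3. All 4 keratinocyte markers had differences from day 0 above 0 at every time, with medians from 0.85 at day 1 to 2.74 at day 6. Of these, 1 was called higher at day 3 and 1 late. Their list means per tumour ran from 6.06 to 9.53 at day 0 and from 6.12 to 11.99 late. Of 5 skeletal muscle markers, 2 were called higher late, with a median difference of 1.645. Of 7 macrophage markers, 1 was called higher and 1 lower late. Of 4 fibroblast markers, 2 were called higher late. Of 4 endothelial markers, 1 was called higher late and 2 lower at day 3. Of all genes, 26.3% were called higher and 20.1% lower late, and 11.6% lower at day 3. The shares called higher at days 1, 2, 3 and 6 were 7.58, 6.74, 9.74 and 5.74%. The part of these differences in the results below was not tested unless a value is given.

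Late tumours had lower levels of much of the replication machinery than tumours at day 0. At a limma adjusted p under 0.05, 18 of the 37 genes were called lower (48.6%) and 1 was called higher. Of all 14319 genes tested, 20.1% were called lower and 26.3% higher in that comparison. The median difference of the 37 genes was -0.35 on the log2 scale, against 0.045 for all genes, and 31 of the 37 differences were below 0. The genes did not move as a block. Tk1, Rrm2, Uhrf1, E2f1, Mcm2, Cdt1, Mcm5 and Ccne1 had the most negative differences, from -0.83 to -1.60, while those of Pcna, Prim2, Pola1, Orc6 and Ccne2 lay between -0.05 and 0.07. Differences are on the log2(intensity + 16) scale, which understates those of dim genes.

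**Figure D1:**
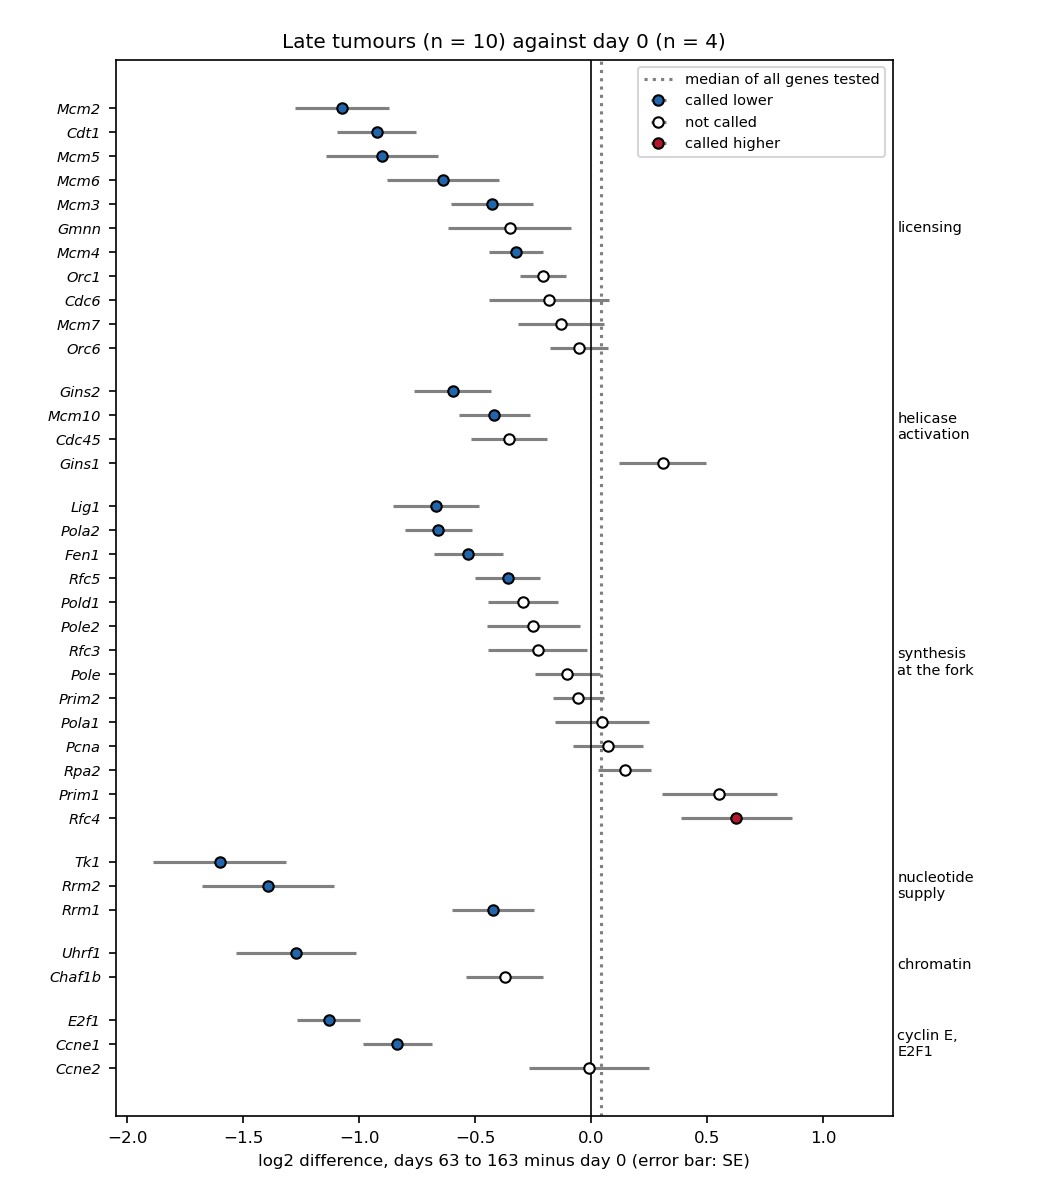
Log2 difference between late tumours (days 63 to 163, n = 10) and day 0 (n = 4) for each of the 37 tested DNA replication genes, with the standard error from limma, grouped by role. Blue points were called lower (18 genes), the red point higher (Rfc4) and white points were not called; the dotted line is the median of all genes tested, 0.045.

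Among the 11 licensing genes, 6 were called lower in late tumours (54.5%) and none higher, against 20.1% and 26.3% of all genes. All 11 differences were below 0, with a median of -0.35. Mcm2, which encodes a subunit of the MCM ring, ranged from 7.96 to 9.15 with a median of 8.72 in late tumours, and was at 9.73, 9.62, 9.79 and 9.94 in the day 0 tumours. Every late tumour lay below every day 0 tumour. The log2 difference was -1.07 ± 0.20 (SE, adjusted p = 5.94e-05). Cdt1, the loading factor, ranged from 8.53 to 9.65 with a median of 8.87 in late tumours, against 10.05, 9.91, 9.62 and 9.98 at day 0. Only the tumour of day 163 reached the day 0 range, and the difference was -0.92 ± 0.17 (SE, adjusted p = 5.47e-05). The other ring subunits differed in size of change. Mcm5 was lower, at -0.90, Mcm6 at -0.64, Mcm3 at -0.43 and Mcm4 at -0.32 (adjusted p = 0.00266, 0.0288, 0.0452 and 0.0242), and Mcm7 was at -0.13 (95% interval -0.51 to 0.25) and not called. Of these, Mcm5 had no overlap between late and day 0 tumours. The calls of Mcm3, Mcm6, Mcm4 and Mcm5 were lost under 6, 5, 4 and 3 of 12 other settings. Those of Mcm3, Mcm6 and Mcm4 were also lost when any of 8, 4 and 3 single tumours was left out, day 0 replicates 2, 3 and 4 among them.

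The remaining licensing genes were not called. Orc6, a subunit of the origin recognition complex, ranged from 8.36 to 9.22 with a median of 8.72 in late tumours, and was at 8.79, 8.51, 8.86 and 8.93 at day 0. The 2 groups overlapped fully at -0.05 (95% interval -0.30 to 0.20). Gmnn, which encodes geminin, ranged from 7.06 to 8.92 around a median of 8.13 in late tumours and was at 7.90, 8.39, 8.53 and 8.71 at day 0. Late tumours thus lay both above and below the day 0 range, and the difference of -0.35 had an interval of -0.89 to 0.19. Orc1 was at -0.21 and Cdc6 at -0.18 (adjusted p = 0.0827 and 0.589).

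The promoters of 4 licensing genes that hold the same kind of E2F-type match are shown. Mcm5 and Mcm6 were called lower in late tumours, while Orc1 and Mcm7 were not, though Orc1 was lower at an unadjusted limma p under 0.05. The genes were not tested against each other. Cdc6, a licensing gene that was not called, also held a match, 138 bases before the start, and is not shown. The 8 letters TTTCCCGC, TTTCGCGC, TTTGCCGC and TTTGGCGC were searched on both strands. Each line is the 250 bases before the annotated start from RefSeq on GRCm38.p6, 5′ to 3′ on the strand of the gene, with matches in capitals. Overlapping matches run together.
Mcm5 (chr8:75109259-75109508, forward strand): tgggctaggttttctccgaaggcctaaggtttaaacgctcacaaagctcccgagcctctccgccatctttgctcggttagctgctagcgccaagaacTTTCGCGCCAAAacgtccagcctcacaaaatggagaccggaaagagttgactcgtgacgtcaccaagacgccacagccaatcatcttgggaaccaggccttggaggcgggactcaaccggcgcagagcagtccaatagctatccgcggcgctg
Mcm6 (chr1:128359706-128359955, reverse strand): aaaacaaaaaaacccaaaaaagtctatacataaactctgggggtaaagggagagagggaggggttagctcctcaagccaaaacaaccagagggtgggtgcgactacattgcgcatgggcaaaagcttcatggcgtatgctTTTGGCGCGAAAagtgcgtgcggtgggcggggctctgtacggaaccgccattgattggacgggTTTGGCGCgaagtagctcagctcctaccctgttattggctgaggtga
Orc1 (chr4:108579204-108579453, forward strand): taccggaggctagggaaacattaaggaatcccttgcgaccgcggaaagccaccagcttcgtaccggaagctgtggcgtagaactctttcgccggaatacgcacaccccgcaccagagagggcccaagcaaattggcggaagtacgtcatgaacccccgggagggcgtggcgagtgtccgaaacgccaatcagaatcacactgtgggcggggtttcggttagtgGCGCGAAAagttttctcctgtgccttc
Mcm7 (chr5:138171884-138172133, reverse strand): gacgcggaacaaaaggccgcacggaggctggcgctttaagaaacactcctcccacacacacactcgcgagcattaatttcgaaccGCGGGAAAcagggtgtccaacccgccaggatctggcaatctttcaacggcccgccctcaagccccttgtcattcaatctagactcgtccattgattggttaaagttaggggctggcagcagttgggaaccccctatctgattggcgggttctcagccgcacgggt
In Mcm5 the 2 overlapping matches began 153 and 149 bases before the start, and Mcm6 had an overlapping pair at 110 and 106 and another match at 47. Orc1 and Mcm7 had 1 match each, at 27 and 165, and a second listed start of Mcm7 had none. Over the 31 genes with an entry in the table, 8 held a match in these 250 bases (25.8%), against 2.16% of 27025 genes. With the 50 bases after the start included, the counts were 13 of 31 (41.9%) and 2.6%. By outcome, 6 of 16 genes called lower in late tumours held a match in that longer window (37.5%) and 7 of 14 tested genes that were not (50%). A second element, TTTGAA, found in promoters of many late cell cycle genes, was in the longer window of 3 of the 31 genes (9.68%), Cdc45, Fen1 and Mcm2, against 20.2% of all genes, and CCAAT was in 17 (54.8%), against 41.1%. A match describes these letters only.

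Of the 4 helicase activation genes, 2 were called lower in late tumours (50%) and none higher, against 20.1% and 26.3% of all genes. Gins2, a subunit of the GINS complex, ranged from 7.19 to 8.32 with a median of 7.91 in late tumours, against 8.28, 8.58, 8.46 and 8.42 at day 0. Only late replicate 5, a tumour of day 77, lay inside the day 0 range, and the difference was -0.60 ± 0.17 (SE, adjusted p = 0.00401). With the Gapdh difference as a covariate it was -0.47, and without the tumours above 2 it was -0.28, and neither was called (adjusted p = 0.111 and 0.357). Gins1, another subunit of the same complex, ran the other way, from 7.37 to 8.23 with a median of 7.78 in late tumours and at 6.83, 7.50, 7.70 and 7.81 at day 0. The groups overlapped, and its difference of 0.31 was not called (95% interval -0.07 to 0.69). Mcm10, which helps to start the helicase, was lower, at -0.42 (adjusted p = 0.0244), and Cdc45 was at -0.35 (adjusted p = 0.0746). The Mcm10 call held under 10 of 12 other settings and in 11 of 14 fits with a single tumour left out.

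Among the 14 genes that act at the fork, 4 were called lower (28.6%), against 20.1% of all genes, and 1 higher (7.14%), against 26.3%. The other 9 were not called, and the median of the 14 was -0.17. Pola2, the accessory subunit of DNA polymerase alpha, ranged from 6.36 to 7.57 with a median of 7.0 in late tumours, against 7.28, 7.81, 7.69 and 7.84 at day 0. Late replicates 8 and 9 (days 121 and 136) reached into the day 0 range, and the difference was -0.66 ± 0.14 (SE, adjusted p = 0.000382). The call was lost under 4 of 12 other settings. The difference was -0.35 both with a block for spike-in set and inside the third set alone, which rest on the same 2 late tumours. It was -0.30 with the Gapdh difference as a covariate and -0.39 without the tumours above 2. Pola1, the catalytic subunit of the same polymerase, ranged from 7.0 to 8.01 with a median of 7.76 in late tumours and was at 7.04, 7.40, 7.81 and 8.01 at day 0. The groups covered the same range, and the difference was 0.05 (95% interval -0.36 to 0.46). Pcna, the sliding clamp, ranged from 11.13 to 11.99 with a median of 11.85 in late tumours, against 11.36, 11.54, 11.82 and 11.73 at day 0. Late tumours lay on both sides of the day 0 range, and the difference was 0.07 (95% interval -0.23 to 0.38).

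The genes of Okazaki fragment joining were both called lower, Lig1 (DNA ligase I) at -0.67 and Fen1 (the flap nuclease) at -0.53 (adjusted p = 0.00368 and 0.00401). The 3 measured subunits of the clamp loader differed. Rfc5 was lower, at -0.36 (adjusted p = 0.0331), Rfc3 was at -0.23 (adjusted p = 0.392), and Rfc4 was higher, at 0.63 ± 0.24 (SE, adjusted p = 0.0314). The Rfc5 call held under only 7 of 12 other settings and in 10 of 14 fits with a single tumour left out. Rfc4 ranged from 7.34 to 8.58 in late tumours, and was at 6.38, 7.56, 7.82 and 7.59 at day 0, where replicate 1 stood low. Without that tumour Rfc4 was at 0.31 and no longer called (adjusted p = 0.315). With spike-in set entered as a block it was at 0.02, a value that rests on the 2 late tumours of the third set. Primase was not called: Prim1, its catalytic subunit, was at 0.55 ± 0.25 (SE, adjusted p = 0.0644) and Prim2, its large subunit, at -0.05. The leading strand polymerase genes Pole and Pole2 were at -0.10 and -0.25, the lagging strand polymerase gene Pold1 at -0.29, and Rpa2, which encodes a subunit of the single-strand binding complex, at 0.15, and none of these was called. A dimmer probe set of Rpa2, with a mean of 7.21 against 7.92 for the one used, had the other sign, at -0.52.

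All 3 measured nucleotide supply genes were called lower in late tumours, against 20.1% of all genes, with a median difference of -1.39. Tk1, which encodes thymidine kinase 1 of the salvage pathway, ranged from 6.18 to 7.90 with a median of 6.84 in late tumours, against 7.95, 8.68, 8.87 and 8.77 at day 0. No late tumour reached the lowest day 0 tumour, and the difference was -1.60 ± 0.28 (SE, adjusted p = 3.1e-05). It was -0.96 with the Gapdh difference as a covariate (adjusted p = 0.0315). Without the tumours above 2, which left late replicates 5 and 8 at 7.67 and 7.90, it was -0.78 and not called (adjusted p = 0.0779). Rrm2, the small subunit of ribonucleotide reductase, ranged from 8.07 to 9.55 with a median of 8.62 in late tumours, against 9.90, 10.07, 10.47 and 10.18 at day 0. The groups again did not overlap, at -1.39 ± 0.29 (SE, adjusted p = 0.00018). Rrm1, the large subunit, ranged from 8.75 to 9.85 with a median of 9.44 in late tumours and was at 9.32, 9.80, 10.04 and 10.10 at day 0. It overlapped widely with day 0, with a difference of -0.42 ± 0.17 (SE, adjusted p = 0.0463), and its call was lost when any of 9 single tumours was left out.

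Of the chromatin genes, Uhrf1, which encodes a factor that brings the maintenance DNA methyltransferase to new DNA, ranged from 6.75 to 8.14 with a median of 7.30 in late tumours. At day 0 it was at 8.04, 8.76, 8.95 and 8.91. The late tumours of highest level overlapped only with day 0 replicate 1, and the difference was -1.27 ± 0.26 (SE, adjusted p = 0.000157). Chaf1b, a subunit of the histone chaperone CAF-1, ranged from 6.46 to 7.10 with a median of 6.82 in late tumours, against 6.55, 7.47, 7.39 and 7.16 at day 0. The late tumours overlapped with replicate 1 alone here too, and the difference of -0.37 ± 0.17 was not called (SE, adjusted p = 0.0643).

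E2f1, the transcription factor of the class, ranged from 6.22 to 7.10 with a median of 6.74 in late tumours, against 7.70, 7.68, 7.95 and 7.87 at day 0. Every late tumour lay below every day 0 tumour, and the difference of -1.13 ± 0.14 (SE, adjusted p = 1.26e-07) had the lowest p of the 37 genes. Ccne1, which encodes cyclin E1, ranged from 6.79 to 7.40 with a median of 7.19 in late tumours and was at 7.89, 7.91, 7.90 and 8.14 at day 0. The groups did not overlap, and the difference was -0.83 ± 0.15 (SE, adjusted p = 3.08e-05). Ccne2, which encodes cyclin E2, ranged from 5.70 to 7.35 with a median of 6.45 in late tumours, against 5.99, 6.49, 7.16 and 6.32 at day 0. Its groups overlapped fully, at -0.01 (95% interval -0.54 to 0.52).

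In all, 6 of the 37 genes had every late tumour below every day 0 tumour, namely Mcm2, Mcm5, Rrm2, Tk1, Ccne1 and E2f1, against 7.67% of all genes. The calls of E2f1 and Ccne1 held under all 12 other settings tried and with any of 14 tumours left out. With the Gapdh difference as a covariate, 13 genes were called lower in late tumours, and with the 8 late tumours of a difference over 2 left out, 11 were, from 2 late tumours against 4. With spike-in set entered as a block 11 were called lower. All of day 0 lay in the third set, so the late differences of that fit also rest on 2 late tumours against 4. They equal those within the third set alone, where 4 genes were called lower: Ccne1, E2f1, Gins2 and Tk1. These 2 of the 12 settings are thus not separate checks of the differences.

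**Figure D2:**
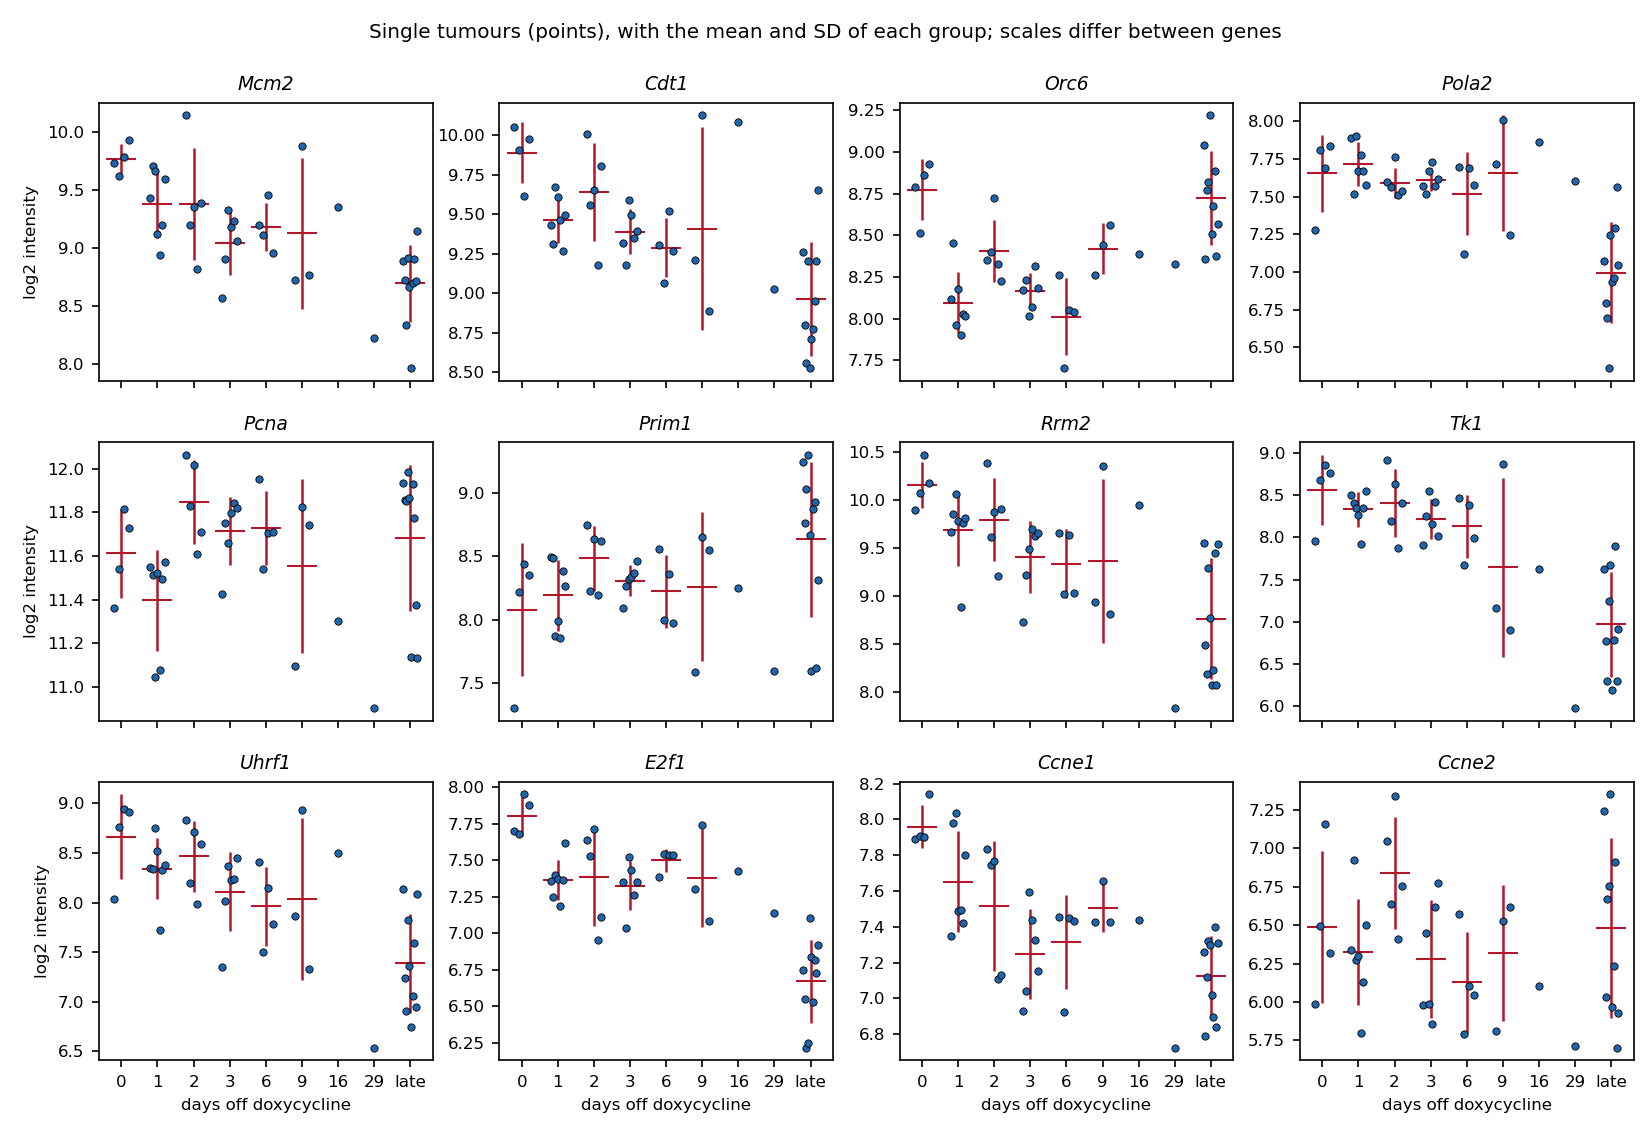
Log2 intensity of 12 of the genes in every tumour (points), by days off doxycycline, where late stands for days 63 to 163; red bars give the mean and SD of each group. Late tumours lie below all day 0 tumours for Mcm2, Rrm2, Tk1, E2f1 and Ccne1, while those of Pcna, Orc6 and Ccne2 overlap with day 0.

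The late tumours differed among themselves. The mean over the 37 genes was 8.03 ± 0.21 in late tumours and 8.43 ± 0.26 at day 0 (SD, n = 10 and 4), and single late tumours ranged from 7.68 to 8.34. The lowest were those of day 90, at 7.68, and day 136, at 7.77, in which 28 and 25 of the 37 genes lay below every day 0 tumour. In the other 8 late tumours this number ran from 13 to 20. The single tumour of day 29 was lower still, at 7.56, with 29 genes below every day 0 tumour, among them Rrm2 at 7.83, Tk1 at 5.97 and Uhrf1 at 6.54, and the tumour of day 16 was at 8.22 with 12. The share of all genes below every day 0 tumour was not counted for single tumours. Whether these numbers are particular to the 37 genes was therefore not tested. The 7 division markers, which are no part of the list, were each called lower in late tumours, against 20.1% of all genes. Their median difference was -1.39, with Mki67 at -0.87 (adjusted p = 0.0298). Their mean was also lowest at days 136, 29 and 90, at 6.31, 6.64 and 6.69, against 8.45 to 9.30 at day 0.

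**Figure D3:**
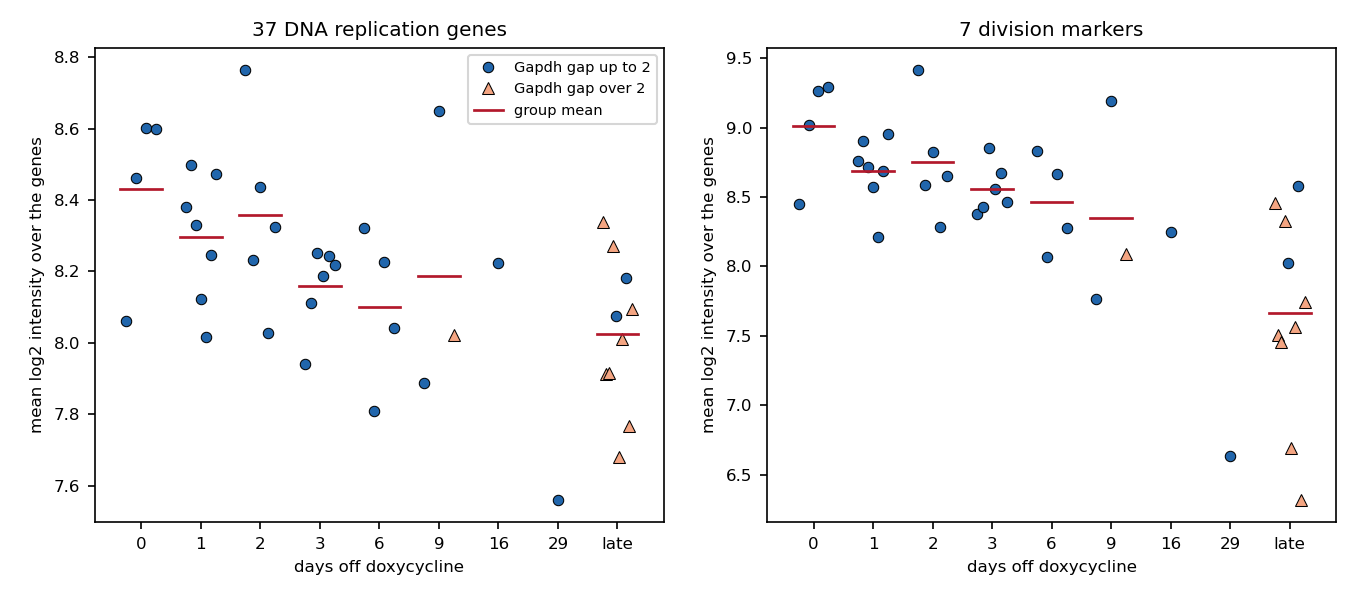
Mean log2 intensity per tumour over the 37 DNA replication genes (left) and over 7 division markers (right), by days off doxycycline, where late stands for days 63 to 163. Triangles are tumours with a log2 Gapdh difference above 2, and red lines are group means; the day 29 tumour and the late tumours of days 90 and 136 are the 3 lowest in both panels.

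The first days off doxycycline brought fewer called differences. All comparisons with day 0 share its 4 tumours. At day 1, 3 of the 37 genes were called lower (8.11%), which is near the 6.26% of all genes, and none higher, against 7.58%. Orc6 ranged from 7.90 to 8.45 with a median of 8.03 at day 1, below all 4 day 0 tumours, and was lower, at -0.68 ± 0.13 (SE, adjusted p = 0.000946). E2f1 ranged from 7.19 to 7.62 with a median of 7.37, also below all day 0 tumours, and was lower, at -0.44 ± 0.14 (SE, adjusted p = 0.0393). The E2f1 call held in only 4 of 11 limma fits with a single tumour left out (adjusted p up to 0.124). It was also lost with arrays centred on their medians. Orc1 was lower, at -0.36 ± 0.10 (SE, adjusted p = 0.0186), with its highest day 1 tumour at 7.04, level with the lowest of day 0. These 2 genes without overlap compare with 4.37% of all genes. Without day 0 replicate 4 Orc6 alone was called. Of the day 1 tumours 6 lay in the second spike-in set and 1 in the first, against the third for all of day 0. With set as a block Orc6 was still called, at -1.01, while E2f1, at -0.25, and Orc1, at -0.42, were not (adjusted p = 0.535 and 0.114). With arrays centred on their medians in place of quantile normalization, 67.6% of all calls at day 1 were higher, against 54.8% here, and 2 of the 37 genes were called lower. The median of the 37 genes was -0.14, against 0.002 for all genes.

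At day 2 no gene of the 37 was called by limma, against 8.35% of all genes called lower and 6.74% higher. Ccne1 alone had every day 2 tumour below every day 0 tumour, against 10.1% of all genes. At an unadjusted p under 0.05, 5 were lower (Orc6, Pold1, Fen1, Ccne1 and E2f1) and 2 higher (Rfc3 and Rfc4). In either direction 4270 of the 14319 genes met that threshold. Under other settings the count of limma calls ran from 0 to 3. The median was -0.13, against -0.018 for all genes. Day 2 tumours were spread widely, with replicate 1 highest in 25 of the 37 genes and replicate 4 lowest in 28, and their mean levels were 8.77 and 8.03. Without replicate 1, 3 genes were called, without replicate 3, 2 were, and in the absence of day 0 replicate 2 the count was 1.

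At day 3 the lower calls numbered 7 of 37 (18.9%), against 11.6% of all genes, with none higher, against 9.74%, and 32 of the 37 differences were below 0. Ccne1 was at 6.93, 7.04, 7.59, 7.44, 7.33 and 7.16 at day 3, all below the lowest day 0 tumour at 7.89, and was lower, at -0.71 ± 0.16 (SE, adjusted p = 0.00212). Mcm2 ranged from 8.57 to 9.33 with a median of 9.12 at day 3, again without overlap with day 0, and was lower, at -0.72 ± 0.22 (SE, adjusted p = 0.0178). Orc6, Pold1, Fen1, E2f1 and Orc1 were lower, at -0.61, -0.55, -0.51, -0.48 and -0.36. Dimmer probe sets of Fen1 and Orc1 were at 0.08 and -0.03. With the mean of probe sets these 2 calls were lost and the other 5 held. Rrm2 had the most negative difference, at -0.75 ± 0.31 (SE, adjusted p = 0.0818), but a wide spread, and was not called. Its dimmer probe sets were at -0.42 and 0.14. In 10 of the 37 genes every day 3 tumour lay below every day 0 tumour, against 10.5% of all genes. Without day 0 replicate 4, 2 genes were called, Orc6 and Ccne1.

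At day 6, 3 genes were called lower (8.11%), which is near the 6.46% of all genes, and none higher, against 5.74%. Orc6 was at 8.26, 7.70, 8.05 and 8.04 in the day 6 tumours, all below day 0, and was lower, at -0.76 ± 0.15 (SE, adjusted p = 0.00109). Ccne1 was at 7.45, 6.93, 7.45 and 7.43, also below all of day 0, and was lower, at -0.64 ± 0.18 (SE, adjusted p = 0.0152). Pold1 was lower, at -0.73 ± 0.18 (SE, adjusted p = 0.00681). Again 10 genes had every day 6 tumour below every day 0 tumour, against 12.4% of all genes, and 32 of 37 differences were below 0. All tumours of days 2, 3 and 6 belonged to the first spike-in set and all of day 0 to the third. With the set as a block no gene of the 37 was called at day 3 or day 6 (134 and 70 of all genes were). Pold1 was then at 0.40 and 0.22 and Fen1 at day 3 at 0.20. Set and time can be told apart here only through a few tumours. In that fit 1 tumour of day 1 ties the first set to the second, and 2 late tumours tie the second to the third. Those 2 late tumours had Gapdh differences of 2.41 and 4.41.

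Day 6 was also set against day 2, whose tumours lay in the same spike-in set. Here 36 of the 37 differences were below 0, with a median of -0.22, against 0.012 for all genes. Day 2 replicate 1 was highest of its group in 25 of the 37 genes and day 6 replicate 2 lowest in 27. The signs thus share tumours and are not separate results. None was called by limma, nor was any of the 14319 genes (0%). At an unadjusted p under 0.05, Orc6 (-0.39), Rfc4 (-0.59) and Ccne2 (-0.71) were lower. In either direction 571 of the 14319 genes met that threshold.

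At day 9 the 3 tumours did not move together. Replicate 2 had the highest level of 33 of the 37 genes and a mean of 8.65, above every day 0 tumour, while replicates 1 and 3 were at 7.89 and 8.02. Tk1 was at 7.16, 8.87 and 6.90 and Rrm2 at 8.93, 10.35 and 8.81, against 7.95 to 8.87 and 9.90 to 10.47 at day 0. The median SD of the 37 genes was 0.42 at day 9, against 0.23 for all genes. None of the 37 was called by limma, against 1.91% of all genes called lower and 2.66% higher. At an unadjusted p under 0.05, 7 were lower, and 3105 of the 14319 genes differed in either direction. Without replicate 2, 6 genes were called lower: Cdt1, Mcm2, Rrm2, Tk1, Uhrf1 and E2f1. Every day 9 tumour lay below every day 0 tumour in Orc1 and Ccne1, against 8.02% of all genes.

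**Figure D4:**
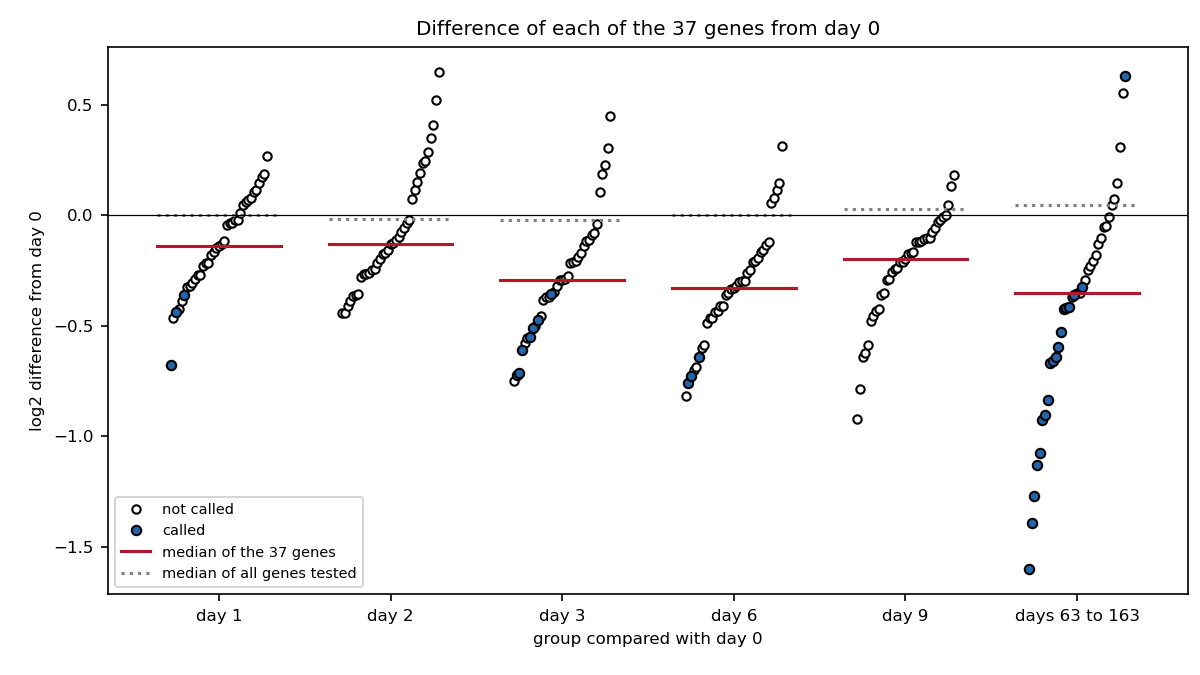
Log2 difference from day 0 of each of the 37 DNA replication genes (points, ordered by size within each group) at days 1, 2, 3, 6 and 9 and in the late tumours (days 63 to 163). Filled points were called by limma; red lines are the medians of the 37 genes, from -0.13 at day 2 to -0.35 in late tumours, and dotted lines the medians of all genes.

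The course of Orc6 was as follows, without a test against the other genes. Its mean was 8.77 ± 0.18 before withdrawal (day 0) and 8.09 ± 0.18 on day 1. Day 2 averaged 8.40 ± 0.19, day 3 averaged 8.16 ± 0.11 and day 6 averaged 8.01 ± 0.23. Day 9 tumours averaged 8.42 ± 0.15 and late tumours 8.72 ± 0.28 (SD, n = 4, 7, 5, 6, 4, 3 and 10). It was called lower at days 1, 3 and 6 and was called higher in late tumours than at day 1, by 0.63 ± 0.10 (SE, adjusted p = 9.46e-06). E2f1 and Ccne1 were lower at every time, from -0.30 to -1.13 and from -0.31 to -0.83, though not called at each. On the probe set used, Rrm2 was also below its day 0 mean at every time, at -0.47, -0.36, -0.75, -0.82, -0.79 and -1.39 over days 1, 2, 3, 6, 9 and the late tumours, and Tk1 at -0.23, -0.16, -0.35, -0.44, -0.92 and -1.60. A dimmer probe set of Rrm2 was at 0.14 at day 3. For Rrm2 and Tk1 only the last of these was called.

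Late tumours were also set against day 1, with which most of them shared a spike-in set. This comparison uses the same late tumours as the one against day 0. In that comparison 6 of 7 macrophage markers and all 7 T and NK cell markers were called lower, and 6 of 7 melanocyte, 4 of 4 Schwann and nerve and 3 of 4 endothelial markers higher. The part of these in the values that follow was not tested. Here 15 of the 37 genes were called lower (40.5%), against 22.8% of all genes, and 1 higher (2.70%), against 28.9%. Tk1 was lower, at -1.37, Uhrf1 at -0.95, Rrm2 at -0.93, Mcm5 at -0.87, Lig1 at -0.85, Pola2 at -0.72, E2f1 and Mcm2 at -0.69, Mcm6 at -0.68 and Ccne1 at -0.53. Cdt1, Mcm3, Rfc5, Chaf1b and Gins2 made up the rest, from -0.33 to -0.50. In Lig1, Tk1 and E2f1 every late tumour lay below every day 1 tumour, against 3.72% of all genes. Within the second set alone (8 late against 6 day 1 tumours) 17 genes were called lower and 4 higher, Orc6, Pcna, Prim1 and Rfc4. With the Gapdh difference as a covariate 7 were called lower and 1 higher, and without tumours above 2, which left 2 late tumours, Cdt1, Lig1, Pola2 and Uhrf1 were called lower and Orc6 and Ccne2 higher.

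The wider replication list held 46 other measured genes, of which 17 were called lower (37%) and 2 higher (4.35%) in late tumours, against 20.1% and 26.3% of all genes, with a median of -0.14. The lowest p values were those of E2f8 (-2.73), Pold4 (-1.91), E2f7 (-1.61) and E2f3 (-0.61). E2f7 and E2f8 encode atypical E2F factors that repress transcription of replication genes and are themselves induced by E2F1, and Pold4 encodes the smallest subunit of DNA polymerase delta. E2f8 was called lower at every time, and its tumours ranged from 6.36 to 7.78 with a median of 6.84 late, against 9.93, 9.58, 9.18 and 10.04 at day 0. Its differences from day 0 were -1.16 ± 0.32, -1.20 ± 0.34, -1.68 ± 0.33, -2.06 ± 0.36, -1.96 ± 0.39 and -2.73 ± 0.30 (SE) at days 1, 2, 3, 6 and 9 and in late tumours, larger than that of any of the 37 genes at each time. E2f7 was called lower at days 2, 3 and 6 (-0.80, -1.08 and -0.99) and late. All tumours of days 1, 2, 3 and 6 lay in other spike-in sets than day 0. Whether E2f7 and E2f8 stayed called with set as a block is not given here. Over days 1, 2, 3, 6 and 9 the 46 genes had 3, 3, 6, 4 and 2 lower calls, or 6.52, 6.52, 13.0, 8.70 and 4.35%, against 6.26, 8.35, 11.6, 6.46 and 1.91% of all genes. At days 1 to 3 these shares were near that background. They had 1 higher call, Dna2, a nuclease that trims flaps, at day 2 (0.86) and at day 3 (0.75).

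Among 12 measured brakes on the G1 to S step, 3 were called higher and 3 lower in late tumours, 25% each way, which is near the 26.3% and 20.1% of all genes. Rbl2, which encodes the pocket protein p130 of resting cells, was called higher at days 1, 2, 3 and 6 and late (0.65, 0.74, 1.00, 0.85 and 0.74), with levels of 8.46 to 8.63 at day 6, against 8.13, 7.82, 7.75 and 7.21 at day 0. Rb1 was higher by 0.71 late. Cdkn1b, which encodes the CDK inhibitor p27, was higher by 1.01 ± 0.18 at day 1 and by 0.75 ± 0.17 late (SE, adjusted p = 0.000397 and 0.000486), and was at 0.07, 0.21, 0.17 and 0.20 at days 2, 3, 6 and 9. Of the day 1 tumours, replicate 4, the only one in the first spike-in set, had the lowest level of Cdkn1b, at 7.35, against 8.07 to 8.37 in the others. Cdkn1a, which encodes p21, was lower, at -1.06 and -1.08 at days 2 and 3 and at -1.49 late, and Cdkn2b, which encodes p15, at -1.23, -1.30, -1.20, -1.02 and -1.77 at days 2, 3, 6 and 9 and late. Cdkn1c, which encodes p57, was at 0.82 late (adjusted p = 0.131), and E2f4, which encodes an E2F that works with p130, was lower, at -0.23. All tumours of days 1, 2, 3 and 6 lay in other spike-in sets than day 0. Whether these brakes stayed called with set as a block is not given here.

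The spread between tumours of a group was shared across much of the list. At day 0 replicate 1 was the lowest of the 4 tumours in 32 of the 37 genes, at day 6 replicate 2 in 27, at day 3 replicate 1 in 21 of 6 tumours and at day 1 replicate 5 in 20 of 7 tumours. The mean over the 37 genes was 8.06 in day 0 replicate 1 and 8.46, 8.60 and 8.60 in the other day 0 tumours, and the 7 division markers followed the same order at the low end, at 8.45 against 9.02, 9.27 and 9.30. Without day 0 replicate 1, 19 genes were called lower in late tumours, and without replicate 2, 3 or 4, 12 were. Of the 16 called genes with several probe sets, Cdt1, Mcm5 and Mcm10 had a dimmer one of the other sign.

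**Figure D5:**
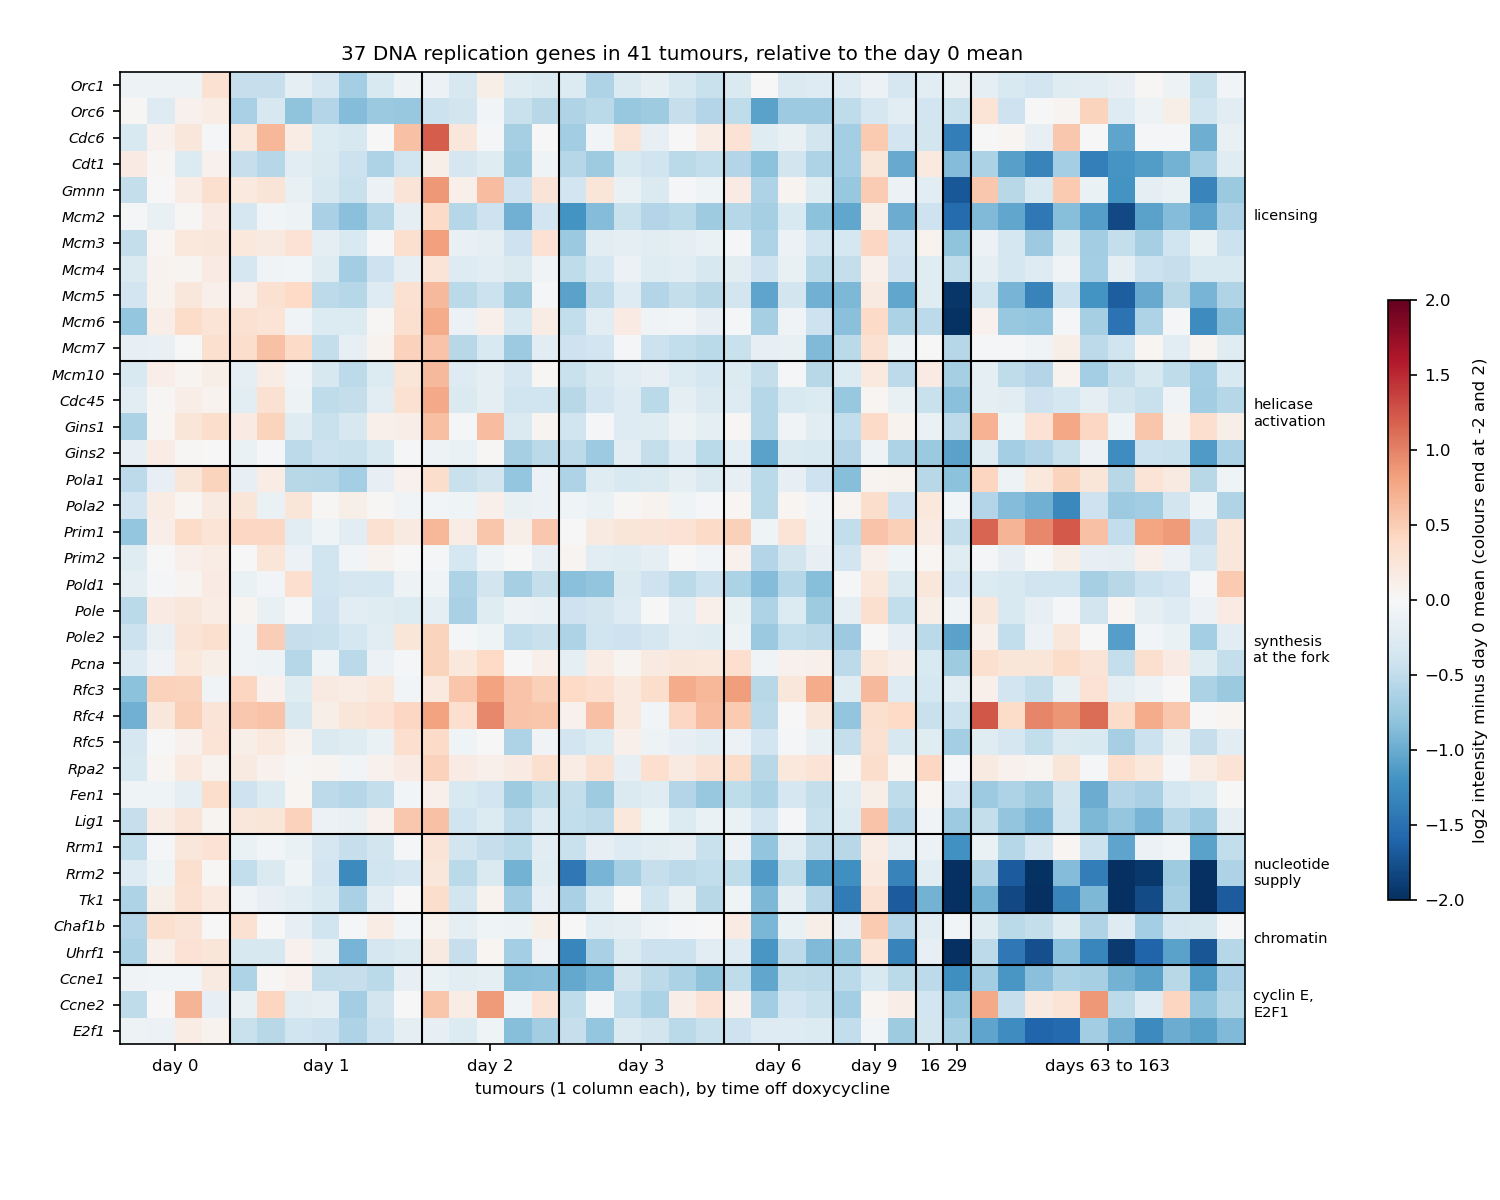
Each of the 37 DNA replication genes (down the page, by role) in each of the 41 tumours (across, by days off doxycycline) as log2 intensity minus the mean of the gene at day 0, with blue for lower and red for higher. Rrm2, Tk1, Uhrf1, Mcm2 and E2f1 are blue in most late tumours, Prim1 and Rfc4 are red in most of them, and day 2 replicate 1 and day 9 replicate 2 are red in most genes.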

How the data were processed

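RNA of 41 tumours was measured on Affymetrix mouse genome arrays. The deposited value table holds one linear intensity per probe set and array, and the submitters' processing notes name MAS5 and RMA without saying which made it, and give no version, detection calls or genome build. From these intensities log2(intensity + 16) was computed here and quantile normalized, since the deposited values were not on a log2 scale. Array medians of the deposited intensity ran from 51.8 to 57.4. Of 45101 probe sets, 34958 named 1 gene in GEO's platform annotation, 932 several and 9211 none, and 34754 of the first matched RefSeq by gene ID. The probe set of highest mean stood for its gene, and genes above the 40th percentile in at least 3 arrays were tested, 14319 in all.

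One limma model (limma 3.58.1, R 4.3.3) held all groups, with 32 residual degrees of freedom, and p-values were adjusted over all genes by Benjamini-Hochberg at 0.05. Errors of differences are limma's standard errors and intervals are at 95%. The test was checked on simulated data, and figures were drawn with Python 3.11.15 and matplotlib 3.10.9. Arrays have no depth, so the number of tumours limits precision. The members, gene lists and tests were chosen with earlier results of these data known. Every member may be named; values by tumour are given for the member of lowest and highest p in each role class (late minus day 0) and for Pcna, Mcm2, Rrm2, E2f1, Ccne1, Ccne2, Cdt1 and Gmnn; other members are named after their values were seen. Of other genes, up to 4 called per comparison are named by lowest p, and always E2f7, E2f8, Cdkn1a, Cdkn1b, Cdkn1c and Rbl2. Alternatives changed the pseudocount (1, 64), scaling, filter (none, 60th percentile), probe set choice, model, spike-in set and RNA quality, and left out each tumour in turn.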

Additional observations from a re-analysis of the deposited data

Results flagged for a closer look

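Within each group of 4 to 10 tumours, the highest and the lowest tumour was compared with the rest by Dixon's test at the 95% level. Of 228 group values, 17 had such a far tumour (7.46%), where chance alone gives about 1 in 20, or 11.4, for independent values. The genes share tumours, so the values are not independent, and no excess over chance can be read from this count. All values are log2 intensities.

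Day 6 replicate 2 stood high in Orc1 at 7.15 (nearest other 6.88), low in Gins2 at 7.37 (nearest other 8.13), low in Rpa2 at 7.23 (nearest other 8.0) and low in Ccne1 at 6.93 (nearest other 7.43). Day 0 replicate 4 stood high in Orc1 at 7.46 (nearest other 7.05) and high in Ccne1 at 8.14 (nearest other 7.91). Day 2 replicate 1 stood high in Cdc45 at 7.94 (nearest other 7.0) and high in Lig1 at 9.29 (nearest other 8.44). Day 1 replicate 5 stood low in Rrm2 at 8.88 (nearest other 9.66) and low in Uhrf1 at 7.73 (nearest other 8.33). Day 3 replicate 1 stood low in Mcm3 at 7.83 (nearest other 8.36) and low in Pola1 at 6.95 (nearest other 7.25). Day 0 replicate 1 stood low in Pole at 7.05 (nearest other 7.74). Day 2 replicate 2 stood low in Pole at 6.94 (nearest other 7.35). Day 3 replicate 3 stood high in Mcm7 at 10.36 (nearest other 10.01). Day 6 replicate 1 stood low in E2f1 at 7.38 (nearest other 7.53). Late replicate 10 stood high in Pold1 at 8.43 (nearest other 7.86).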

How the results depend on the processing

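No paired analysis was possible because the labels give no replicate number, and those used here were assigned in order of accession. Counts are of the 37 tested genes called in either direction. With spike-in set entered as a block, 11 were called in late tumours against day 0 and 0 at day 3 and at day 6, where Pold1 turned to 0.40 and 0.22 and Fen1 at day 3 to 0.20 (adjusted p = 0.585, 0.804 and 0.828). With 1 spike-in set only, late against day 0 gave 4 from fewer tumours, and days 1, 2, 3 and 6 gave no value against day 0. The block and the single set take the late difference from day 0 from the same 2 late tumours of the third set. With the Gapdh difference as a covariate, the count was 2 at day 2 and 8 for late against day 1. Without tumours above 2 in it, the counts were 3 at day 2, 6 at day 6, 11 for late against day 0 and 6 for late against day 1, the last 2 from fewer late tumours. Fitting only the groups compared gave 12 at day 3 and 7 at day 6. Arrays centred on their medians gave 5 at day 6, a pseudocount of 64 gave 1 at day 2 and the mean of probe sets gave 3 there. The cause of these shifts was not tested. Leaving out each tumour in turn gave 1 to 3 calls at day 1, 0 to 3 at day 2, 2 to 8 at day 3, 2 to 4 at day 6, 0 to 6 at day 9, 13 to 19 for late against day 0, 14 to 19 for late against day 1 and 0 to 0 for day 6 against day 2 by limma, where 3 were lower at an unadjusted p under 0.05. In day 6 against day 2, 571 of the 14319 genes met that last threshold in either direction. Arrays give no detection calls here, so how far dim genes stood above background was not assessed.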
